A study of Mus musculus with 30 samples.

Results

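The enzymes that hydroxylate and cross-link collagen were followed through the differentiation of IDG-SW3 cells, and in untreated cells *Lox* fell 15.5-fold from day 3 to day 35 and the prolyl hydroxylase subunit *P4ha2* rose 3.32-fold, both on the log2(RPKM + 0.5) scale. With each library centred on its median gene the changes were 8.77-fold and 5.87-fold. The set was chosen by name as the lysyl oxidases (*Lox*, *Loxl1*, *Loxl2*, *Loxl3*, *Loxl4*), the lysyl hydroxylases (*Plod1*, *Plod2*, *Plod3*) and the catalytic alpha subunits *P4ha1* and *P4ha2* of prolyl 4-hydroxylase. These are 10 of the 25520 gene symbols listed for untreated cells and of the 25410 listed for the hormone experiment. The rule used gene names and no measured value.

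Collagen chains are modified before and after they leave the cell. In the endoplasmic reticulum, prolyl 4-hydroxylase, which joins an alpha subunit to *P4hb*, makes the hydroxyproline that keeps the triple helix stable at body temperature, and the *Plod* enzymes hydroxylate lysines. Both need iron, 2-oxoglutarate and ascorbate. Outside the cell, the copper-dependent lysyl oxidases turn lysines and hydroxylysines into aldehydes from which the cross-links of the fibril form, and in bone the hydroxylation of telopeptide lysines by *Plod2* decides which kind of cross-link is made.

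IDG-SW3 is a conditionally immortalised mouse bone cell line that can be carried from a late osteoblast to an osteocyte stage in culture, so every sample shares 1 line and its transgenes. They grew at 33 °C under interferon-gamma and were then differentiated at 37 °C without it, in medium with ascorbic acid and beta-glycerophosphate. Untreated cells, which received neither compound nor vehicle, were collected on day 3 and then weekly from day 7 to day 35, that is on days 7, 14, 21, 28 and 35 (n = 3 libraries per day, 18 libraries). In the hormone experiment cells received ethanol vehicle or 100 nM 1,25(OH)2D3, the active form of vitamin D, for 24 hours before RNA was taken on day 3 or day 35 (n = 3 per group, 12 libraries). The labels call the replicates biological, and the p-values measure the spread between these libraries only. In whole-culture RNA, fewer cells of a type and less RNA per cell cannot be told apart.

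Levels in untreated cells are RPKM, reads scaled to gene length and library size, and of each library's summed RPKM 71.6% to 88.4% lay in ribosomal RNA rows. Levels in the hormone experiment are CPM, counts scaled to library size after TMM scaling, from libraries of 22062866 to 54325515 counts. The kits that made the libraries differed between the experiments. Osteoblast markers summed to between 123 and 160 RPKM on day 3 and between 466 and 801 on day 35 of the untreated cells. The osteocyte markers *Dmp1*, *Phex*, *Mepe*, *Sost* and *Pdpn* summed to between 0.279 and 1.38 RPKM over both days, but they moved in opposite directions. *Pdpn* went from 0.651 ± 0.224 RPKM on day 3 to 0 in every library of day 35. *Dmp1* went from 0.0877 ± 0.0306 to 0.341 ± 0.203 RPKM, and *Sost* from 0 to 0.363 ± 0.253 (SD, n = 3). *Phex* and *Mepe* overlapped between the days. The same 5 genes summed to between 107 and 133 CPM in vehicle cells on day 3 and between 427 and 562 on day 35. Some markers of other cell types were near 0: *Ptprc* and *Csf1r* of macrophages reached at most 0.031 RPKM on days 3 and 35, *Cdh5* of endothelium and *Myod1* of muscle were listed at 0 there, and the muscle list summed to between 37.8 and 48.8 RPKM on day 3 through *Acta2*, an actin of contractile cells, and to between 3.68 and 5.28 on day 35. The macrophage and osteoclast list went from between 24.7 and 26.0 RPKM to between 50.1 and 96.0 through *Ctsk*, a collagen-degrading protease. The adipocyte list went from between 4.35 and 5.48 RPKM to between 0.518 and 0.842, but its genes moved in opposite directions. *Pparg* went from 4.79 ± 0.405 on day 3 to 0.178 ± 0.0603 on day 35 (SD, n = 3). *Adipoq* went from 0 in every library of day 3 to 0.319, 0.565 and 0.617 RPKM on day 35. *Fabp4* and *Plin1* were at 0 in every library of day 35 and overlapped day 3. The chondrocyte list went from between 9.36 and 15.2 RPKM to between 4.50 and 8.51, within which *Sox9* went from 11.1 ± 3.03 to 2.28 ± 0.505 and *Col2a1* from 0.116 ± 0.0145 to 3.94 ± 2.14. The part that these marker changes have in the results was not tested.

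A gene counted as higher or lower at a Benjamini-Hochberg adjusted p below 0.05 over all genes tested, in limma on log2(RPKM + 0.5) for untreated cells and in edgeR's quasi-likelihood test for the hormone experiment. Fold changes on the log2(RPKM + 0.5) scale understate the change of low genes. Of the 10 genes, 7 passed the filter of at least 1 RPKM in at least 3 libraries, and *Loxl1*, *Loxl4* and *Plod1* did not. On day 35 against day 3, 1 of the 7 rose and 5 fell, where 57.1% of all 9933 genes tested were called, 5.63% higher and 51.5% lower. The median change of all those genes was -0.69 (log2), so each day 35 result is also given relative to it, from libraries centred on the median of the tested genes. In centred libraries 2 of the 7 rose and 3 fell, where 29.5% of all genes were called higher and 21.5% lower, 51.1% together. The median of the 7 genes was -0.94 as listed, beside -0.69 for all genes, and -0.12 centred, beside 0.14.

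**Figure D1:**
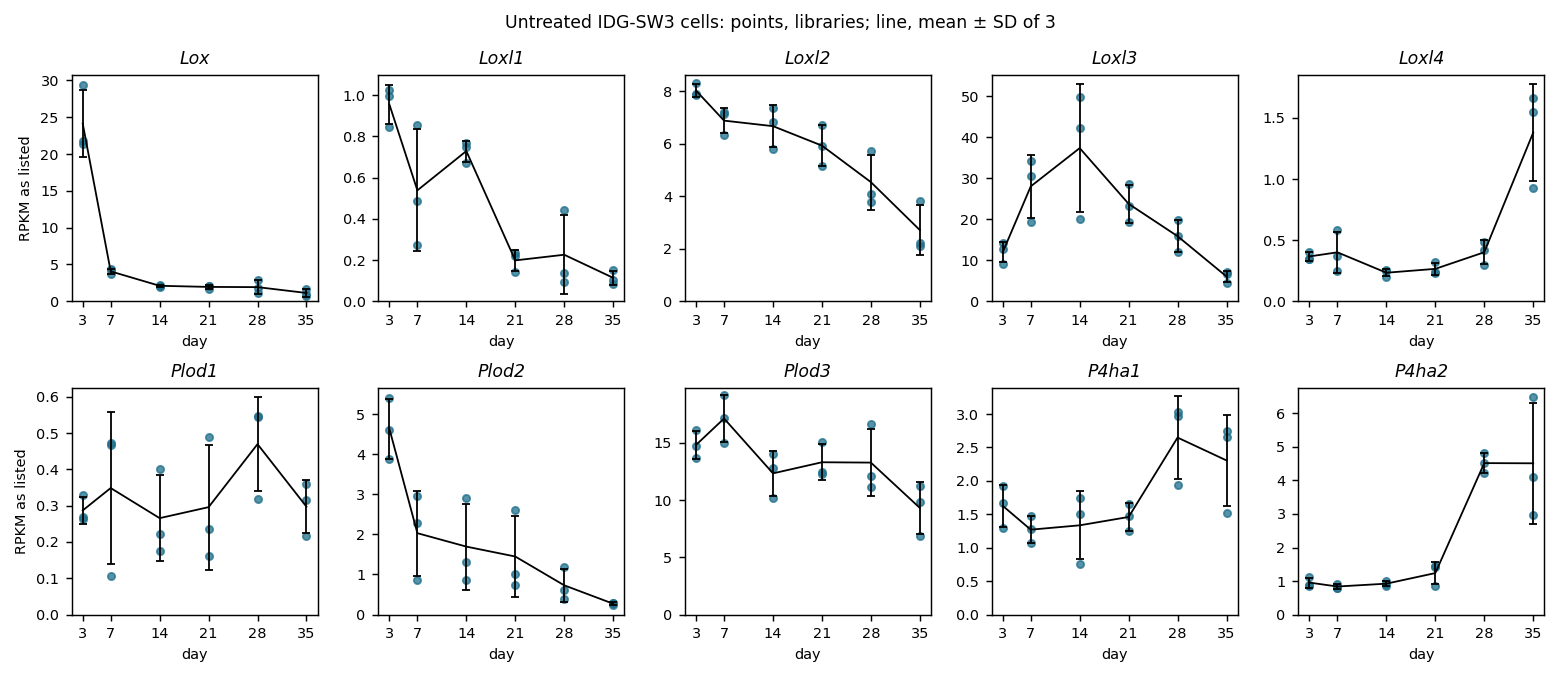
RPKM of the 10 genes in untreated cells by day in culture. Points are libraries, and lines and bars are the mean ± SD of 3. *Lox* lies between 21.3 and 29.4 RPKM on day 3 and at most 4.32 from day 7 on, *Loxl3* peaks on day 14, and *P4ha2* lies at or above 2.96 on days 28 and 35 and at or below 1.44 before.

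*Lox*, the founding lysyl oxidase and the enzyme that acts on fibrillar collagen and elastin, had 29.4, 21.7 and 21.3 RPKM on day 3, the highest mean of the 10 genes on that day. It had 4.32, 3.64 and 4.23 RPKM on day 7 and 2.09, 2.26 and 1.95 on day 14. Later days gave 2.12, 1.68 and 2.04 on day 21, 2.94, 1.08 and 1.74 on day 28, and 1.69, 0.680 and 1.00 on day 35. The libraries of day 3 lay above those of day 7 and those of day 7 above those of day 14, while the neighbouring later days overlapped. *Lox* fell by day 7 (log2 change -2.42 ± 0.26 SE, n = 3, limma adjusted p = 2.94e-06), where 25.7% of all genes were called, and by day 35 (-3.96 ± 0.26, limma adjusted p = 8.82e-10). Centring left the day 35 change at -3.13. The step from day 7 to day 14 was -0.81, which was called with the replicate number as a block (limma adjusted p = 0.0425) and not without it (limma adjusted p = 0.137), and 2.87% of all genes were called in that step without the block. Replicate 1 of every day came from the same sequencing run, by the run number in the file names, and within that run the day 35 difference was -3.77 (log2, 1 library per day). Replicates 2 and 3 came from run 243 on day 3 and from run 247 on days 14, 21 and 28. On day 35 they came from run 246, which held no other day. In those libraries run and day 35 cannot be told apart, and with the run as a covariate day 35 rests on replicate 1 alone.

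None of the other lysyl oxidases fell as far as *Lox*. The daily means of *Loxl2* ran in the same order as those of *Lox*, from day 3 down to day 35, and *Loxl1* too was highest on day 3 and lowest on day 35. *Loxl2*, which cross-links the collagen IV of basement membranes, had 7.86, 7.89 and 8.30 RPKM on day 3, 5.73, 4.08 and 3.79 on day 28, and 3.81, 2.23 and 2.09 on day 35. Its decline was slow, with all libraries of days 7 to 35 below those of day 3. It fell by day 28 (-0.78 ± 0.22, limma adjusted p = 0.00807) and by day 35 (-1.45 ± 0.22, limma adjusted p = 1.74e-05), and in centred libraries by -0.62 on day 35 (limma adjusted p = 0.00132). With the run as a covariate the day 35 change was -1.04.

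*Loxl3*, an amine oxidase required for normal palate and spine development in mice, took the opposite course at first. It had 9.20, 12.6 and 14.1 RPKM on day 3, 19.3, 30.5 and 34.1 on day 7, and 20.0, 42.2 and 49.8 on day 14. On day 21 it had 19.3, 23.3 and 28.7 RPKM, on day 28 19.7, 12.0 and 15.9, and on day 35 6.62, 7.05 and 4.42. Every library of days 7, 14 and 21 lay above all of day 3, and every library of day 35 below. On day 14 *Loxl3* had the highest mean of the 10 genes, 37.3 ± 15.5 RPKM (SD, n = 3). It rose by day 7 (1.17 ± 0.32, limma adjusted p = 0.0114) and day 14 (1.52 ± 0.32, limma adjusted p = 0.00124) and was still above day 3 on day 21 (0.96 ± 0.32, limma adjusted p = 0.0229). Replicate 1, in the shared run, was the lowest library on days 3, 7, 14 and 21, and within that run the day 7 difference was 1.03. The rise on day 7 was not called without replicate 1 of day 3 (1.00, limma adjusted p = 0.066) or replicate 3 of day 7 (1.01, limma adjusted p = 0.0608), and that on day 21 was not called without replicate 1 of day 3 (0.79, limma adjusted p = 0.105) or replicates 2 (0.97, limma adjusted p = 0.055) or 3 of day 21 (0.82, limma adjusted p = 0.0956).

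On day 28 *Loxl3* was not called above day 3 as listed (0.38 ± 0.32, limma adjusted p = 0.362), but it was in centred libraries (0.78 ± 0.23, limma adjusted p = 0.00881) and with quantile normalization (0.55, limma adjusted p = 0.034). Between days 28 and 35 *Loxl3* fell (-1.32 ± 0.32, limma adjusted p = 0.0207; centred -0.90), where 7.98% of all genes were called. The fall was not called with the run as a covariate (-0.87, limma adjusted p = 0.449) or without replicate 1 of day 28 (-1.16), replicate 3 of day 28 (-1.31) or replicate 3 of day 35 (-1.13). Day 35 was below day 3 as listed (-0.94 ± 0.32, limma adjusted p = 0.0173), but the call was lost in centred libraries (-0.12, limma adjusted p = 0.694) and with the run as a covariate (-0.46, limma adjusted p = 0.447). It was also lost without replicate 2 (-0.89) or 3 (-0.81) of day 3, or replicate 3 of day 35 (-0.75).

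*Loxl1*, the oxidase tied to elastic fibres, and *Loxl4* were low. *Loxl1* had a mean of 0.955 ± 0.0947 RPKM on day 3 and 0.114 ± 0.0336 on day 35 (SD, n = 3), with no overlap between the days. *Loxl4* had 0.407, 0.345 and 0.348 RPKM on day 3 and 1.67, 1.55 and 0.928 on day 35, so its day 35 libraries were the higher ones. The files hold 2 rows for *Loxl4*, and the values given are those of the row with the higher mean. Summed over both rows its mean was 0.734 ± 0.0702 RPKM on day 3 and 1.38 ± 0.396 on day 35, and that sum passed the filter and was higher on day 35 (0.59 ± 0.21, limma adjusted p = 0.0236; centred 1.40). Over the 18 libraries, 1104 genes of olfactory receptors, which serve smell and mark background here, averaged between 0.00274 and 0.0143 RPKM, below each library of *Loxl1* and *Loxl4*.

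Among the lysyl hydroxylases, *Plod2*, the telopeptide enzyme, was the one that fell early. It had 5.40, 3.89 and 4.61 RPKM on day 3, 2.94, 0.868 and 2.27 on day 7, and 0.229, 0.289 and 0.292 on day 35. No later library reached the lowest of day 3. *Plod2* fell by day 35 (-2.73 ± 0.38, limma adjusted p = 4.71e-06; centred -1.90, limma adjusted p = 0.000575). Its reads were split over 2 rows in some libraries, and the sum of both rows gave 0.465, 0.586 and 0.593 RPKM on day 35 and a smaller change of -2.28 ± 0.30 (limma adjusted p = 1.57e-06), and -1.47 with the libraries also centred (limma adjusted p = 0.000531). Its falls to day 14 (-1.32 ± 0.38, limma adjusted p = 0.0114; sum of rows -0.81, limma adjusted p = 0.0416), where 29.7% of all genes were called, to day 21 (-1.51 ± 0.38, limma adjusted p = 0.00353; sum of rows -1.02), where 37.0% were called, and to day 28 (-2.10 ± 0.38, limma adjusted p = 0.000139; sum of rows -1.66, centred sum -1.27), where 41.5% were called, also passed the test. The day 14 call was lost without replicate 3 of that day (-1.04, limma adjusted p = 0.0732). The day 7 call (-1.11 ± 0.38, limma adjusted p = 0.0354) was lost in 5 of the 6 fits that left out a library, among them that without replicate 2 of day 7 (-0.72, limma adjusted p = 0.196), and with a pseudocount of 0.1 (limma adjusted p = 0.0648).

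*Plod3*, which also carries glycosyltransferase activity toward hydroxylysine, was the steadiest of the tested genes. It had 14.7, 13.7 and 16.1 RPKM on day 3 and 17.2, 15.0 and 19.1 on day 7, the day of its highest mean. On day 35 it had 11.2, 9.87 and 6.85 RPKM, so that all neighbouring days in the order of its means overlapped and the means of the extremes differed 1.84-fold. As listed it fell by day 35 (-0.67 ± 0.23, limma adjusted p = 0.0171), close to the all-gene median of -0.69, and in centred libraries the change was +0.16 (limma adjusted p = 0.267). The call was also lost with the run as a covariate (-0.48), with ribosomal RNA rows taken out of the scaling (-0.26), and without replicate 3 of day 3 (-0.61) or replicate 3 of day 35 (-0.47). *Plod1*, which hydroxylates lysines of the helix, had means between 0.266 RPKM on day 14 and 0.470 on day 28, and no pair of neighbouring days was apart. In the GRCm38 annotation of GENCODE M21, 16.4% of the exon length of *Plod3* and 13.1% of that of *Loxl3* are shared with neighbouring genes, and whether reads were counted by strand is not given in the sources used here.

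The prolyl 4-hydroxylase subunits moved late. *P4ha2* had 1.13, 0.845 and 0.888 RPKM on day 3 and 1.44, 0.866 and 1.41 on day 21. On day 28 it had 4.22, 4.51 and 4.83 RPKM, and on day 35 6.48, 4.10 and 2.96. The libraries of days 28 and 35 all lay above those of every earlier day, and they overlapped each other. *P4ha2* rose between days 21 and 28 (1.55 ± 0.23, limma adjusted p = 0.000651; centred 1.73), where 1.24% of all genes were called in either direction and 0.826% were called higher. It was the gene of the 7 called in that step, and it remained called in each alternative fit run. Against day 3 its day 35 change was 1.73 ± 0.23 (limma adjusted p = 2.74e-06; centred 2.55). *P4ha2* has 2 rows of near-equal values, and the values given are those of the row with the higher mean. Summed over both rows its mean was 1.90 ± 0.302 RPKM on day 3, 9.02 ± 0.612 on day 28 and 9.01 ± 3.59 on day 35 (SD, n = 3). The sum changed by 1.92 ± 0.24 on day 35 (limma adjusted p = 1.1e-06), and by 2.74 with the libraries also centred. None of the 7 was called between days 14 and 21, where 0.634% of all genes were called.

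*P4ha1*, the main catalytic subunit in most tissues, had 1.29, 1.67 and 1.92 RPKM on day 3, 2.97, 1.93 and 3.04 on day 28, and 2.75, 2.65 and 1.52 on day 35. Its day 28 libraries lay above those of day 3, and its day 35 libraries overlapped them. As listed neither day was called (day 28 0.56 ± 0.25, limma adjusted p = 0.0815; day 35 0.38 ± 0.25, limma adjusted p = 0.201). In centred libraries *P4ha1* was higher on both days (day 28 0.96, limma adjusted p = 0.000123, where 50.6% of all genes were called; day 35 1.20, limma adjusted p = 1.23e-05) and also rose between days 21 and 28 (0.86, limma adjusted p = 0.00598), where 2.76% of all genes were called in centred libraries. Across the 18 libraries, after centring, the log2(RPKM + 0.5) levels of *P4ha1* and *P4ha2* had a Pearson r of 0.94. Those of *Lox* and *Plod2* had 0.79, and those of *Lox* and *P4ha2* -0.37. This is a description over libraries that share days, runs and scaling. Within the run that holds replicate 1 of every day, the day 35 differences were 2.10 for *P4ha2*, 0.86 for *P4ha1*, -3.02 for *Plod2*, -0.37 for *Plod3*, -0.96 for *Loxl2* and -0.45 for *Loxl3* (log2, 1 library per day, no test). The third alpha subunit gene, *P4ha3*, ran the other way: it had 9.60, 8.00 and 8.46 RPKM on day 3 and 0.408, 0.355 and 0.282 on day 35, and it fell (-3.44 ± 0.23, limma adjusted p = 9.92e-10; centred -2.61).

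**Figure D2:**
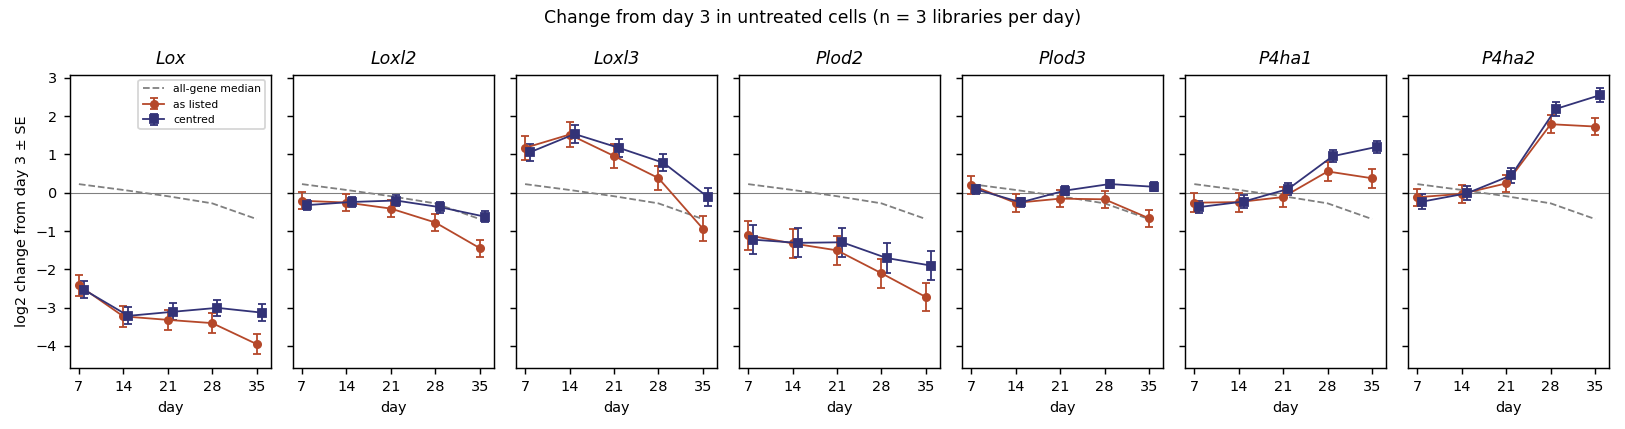
Log2 change from day 3 (± SE, n = 3 libraries per day) of the 7 tested genes in untreated cells. Circles are RPKM as listed, squares are libraries centred on the median of the tested genes, and the dashed line is the median change of all tested genes, which reaches -0.69 on day 35. *Lox*, *Loxl2* and *Plod2* lie below 0 on both scales at day 35, and *P4ha2* lies above 0.

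The promoters of *P4ha1* and *P4ha2* are printed because both genes had their highest mean RPKM as listed on day 28, and because prolyl hydroxylase subunits are known targets of the hypoxia-inducible factors, whose core motif is ACGTG or GCGTG. The day of the peak depends on the scaling. In centred libraries the change from day 3 was larger on day 35 than on day 28 for *P4ha1* (1.20 against 0.96) and *P4ha2* (2.55 against 2.19). The sequences are the 250 bases before the annotated start from RefSeq (GRCm38.p6), both on the plus strand, 5′ to 3′, and capitals mark the core motif on either strand.
*P4ha1*, chr10:59323046-59323295: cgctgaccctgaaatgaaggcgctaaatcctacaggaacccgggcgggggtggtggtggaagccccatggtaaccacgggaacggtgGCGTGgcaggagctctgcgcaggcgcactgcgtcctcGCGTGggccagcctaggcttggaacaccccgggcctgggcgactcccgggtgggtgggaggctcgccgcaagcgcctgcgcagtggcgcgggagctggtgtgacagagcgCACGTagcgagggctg
*P4ha2*, chr11:54100674-54100923: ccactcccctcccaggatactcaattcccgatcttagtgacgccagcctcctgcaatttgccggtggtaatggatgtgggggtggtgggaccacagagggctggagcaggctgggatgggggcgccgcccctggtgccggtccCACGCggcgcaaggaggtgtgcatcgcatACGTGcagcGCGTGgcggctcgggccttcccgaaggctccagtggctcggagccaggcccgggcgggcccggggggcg
Each holds 3 matches, at 163, 126 and 16 bases before the start of *P4ha1* and at 107, 78 and 69 bases before that of *P4ha2*. Of the 10 genes only *Plod1*, *Plod3*, *P4ha1*, *P4ha2* and *Loxl4* were searched, and each had at least 1 match, with 4 in *Plod3*. The rest were not searched, so this gives no share of the 10 genes. The motif is common, since 38.6% of 32851 promoters of this length hold it on either strand, and a match is neither a binding site nor a cause.

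The vehicle cells of the hormone experiment gave another comparison of day 35 with day 3, in which 29.9% of 20055 genes tested were called, 15.5% higher and 14.5% lower. There *P4ha1* had 209, 144 and 167 CPM on day 3 and 1148, 1029 and 1212 on day 35. The groups were far apart, and *P4ha1* rose (2.71 ± 0.16, n = 3, edgeR adjusted p = 1.05e-08), with all 13 alternative fits between 2.59 and 2.88. *Plod1* had 20.4, 23.1 and 19.2 CPM on day 3 and 59.6, 53.8 and 48.6 on day 35, again without overlap, and rose (1.37 ± 0.14, edgeR adjusted p = 2.31e-06). Of the 7 genes tested these 2 were called, and none fell. The median change of the 7 was -0.25, beside 0.18 for all genes.

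*Lox* had 1755, 2673 and 2815 CPM in vehicle cells on day 3 and 2240, 1311 and 1297 on day 35. The groups overlapped through replicate 1 of each day, and the change of -0.58 ± 0.24 was not called by edgeR (adjusted p = 0.0854). It was called without replicate 1 of day 3 (-0.75, edgeR adjusted p = 0.0275), without replicate 1 of day 35 (-0.89, edgeR adjusted p = 0.00997) and by DESeq2 (adjusted p = 0.0344). *Loxl2* was alike (-0.65 ± 0.25, edgeR adjusted p = 0.0633; without replicate 1 of day 35 -0.94, edgeR adjusted p = 0.0107). Per kilobase of exon *Lox* was the highest of the tested genes in vehicle cells on both days, at 505 ± 120 CPM per kilobase on day 3 and 338 ± 113 on day 35 (SD, n = 3), with *P4ha1* next on day 35 at 275 ± 22.6. The *Lox* change in untreated cells, -3.96 as listed and -3.13 centred, was thus larger in size than the -0.58 of vehicle cells, and the *P4ha1* change smaller, but the experiments differ in kit, unit and treatment and the difference was not tested.

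**Figure D3:**
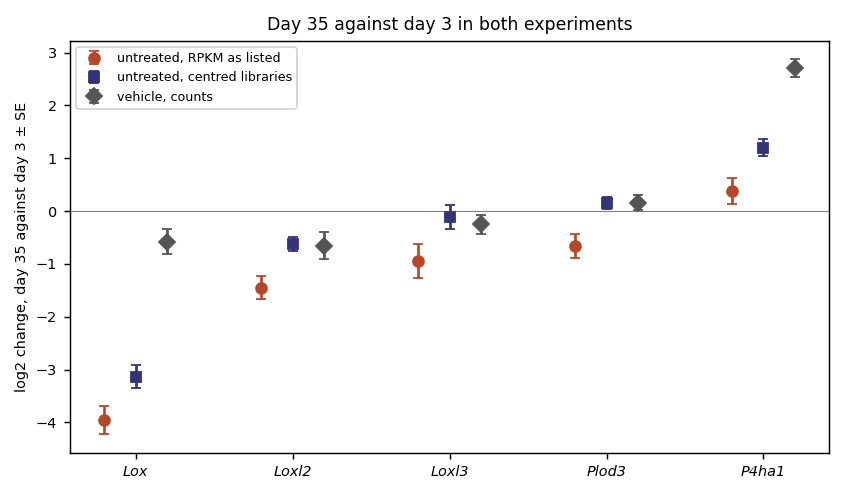
Log2 change from day 3 to day 35 (± SE, n = 3 per group) of the 5 genes tested in both experiments. Circles are untreated cells as listed, squares the same in centred libraries, and diamonds vehicle cells. *Lox* lies at -3.96, -3.13 and -0.58, and *P4ha1* at 0.38, 1.20 and 2.71.

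*Plod2* and *P4ha2* were listed at 0 counts in all 12 libraries of the hormone experiment, and *Loxl4* held 12 counts in all. All 3 have 2 rows per symbol. Symbols with several rows and a mean of at least 5 RPKM in untreated cells were at 0 in all 12 libraries in 11.3% of cases (59 of 524), against 0.817% (23 of 2814) of symbols with 1 row. These 3 genes are therefore treated as not measured there, and nothing is said of their response to the hormone.

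After 24 hours of 1,25(OH)2D3 on day 3, *Lox* had 1111, 882 and 738 CPM, against 1755, 2673 and 2815 in vehicle cells. All treated libraries lay below all vehicle libraries, and *Lox* fell (-1.41 ± 0.25, n = 3, edgeR adjusted p = 0.00144), 2.65-fold. The muscle marker list, carried by *Acta2*, was also lower, at 663 to 703 CPM against 1370 to 2430. So were the osteocyte list, at 58.1 to 61.8 CPM against 107 to 133, and the macrophage and osteoclast list, at 91.1 to 119 against 148 to 193. Within the osteocyte list *Mepe* and *Sost* were higher, with means of 0.3025 and 0.367 CPM against 0. The endothelial list was higher, at 6.37 to 7.58 CPM against 2.2 to 5.48, and the osteoblast, chondrocyte and adipocyte lists overlapped. The part of these differences in the result was not tested. The *Lox* fall was called in all 13 alternative fits, with changes between -1.68 and -1.01. Of the 7 genes 2 fell and none rose, where 20.5% of all genes were called, 11.4% higher and 9.09% lower. The other was *Loxl2*, which had 192, 359 and 247 CPM with vehicle and 199.5, 138 and 139 with hormone. Its groups overlapped, and its fall (-0.74 ± 0.25, edgeR adjusted p = 0.0492) was lost with library totals alone as the scaling (-0.35), with the size factors of DESeq2 (-0.67), with only the 2 groups in the fit (-0.69), with a replicate block (-0.76, edgeR adjusted p = 0.0639), and without replicate 2 (-0.47) or 3 (-0.88) of vehicle or replicate 2 (-0.66) or 3 (-0.66) of hormone.

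The treated day 3 libraries stood apart in background. Olfactory receptor genes took 0.0494% to 0.0723% of their counts, against 0.00392% to 0.00547% with vehicle, and their TMM factors were 1.18 to 1.29, against 0.909 to 0.959. Replicate 2 of the treated day 35 cells had 0.0417%. At that density per kilobase, background would make up 0.223% to 0.359% of the *Lox* counts in treated day 3 cells, 1.49% to 2.16% of *Loxl2*, 6.43% to 12.1% of *Loxl1* and 7.86% to 10.4% of *Plod1*. With it subtracted, a step chosen after seeing the data, the all-gene median went from 0.26 to -0.04, *Lox* still fell (-1.05 ± 0.22, edgeR adjusted p = 0.00539) and *Loxl2* was not called (-0.40 ± 0.25, edgeR adjusted p = 0.3). Replicate 3 of the treated day 3 cells also held adipocyte transcripts (*Fabp4* 103 CPM, against 0.810 and 1.05 in the others), and the part of these cells in the results was not tested.

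The remaining 5 genes were not called on day 3. *Loxl3* had 185, 157 and 159 CPM with vehicle and 117, 124 and 114 with hormone, without overlap (-0.50 ± 0.18, edgeR adjusted p = 0.0586). *Plod3* had 43.3, 56.5 and 50.7 CPM with vehicle and 41.6, 38.7 and 38.4 with hormone, also apart (-0.34 ± 0.14, edgeR adjusted p = 0.0904). With the background subtracted these changes were -0.16 and -0.03. *Loxl1*, *Plod1* and *P4ha1* changed by -0.38 ± 0.24, -0.10 ± 0.14 and 0.05 ± 0.15, with edgeR adjusted p of 0.25, 0.61 and 0.838.

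**Figure D4:**
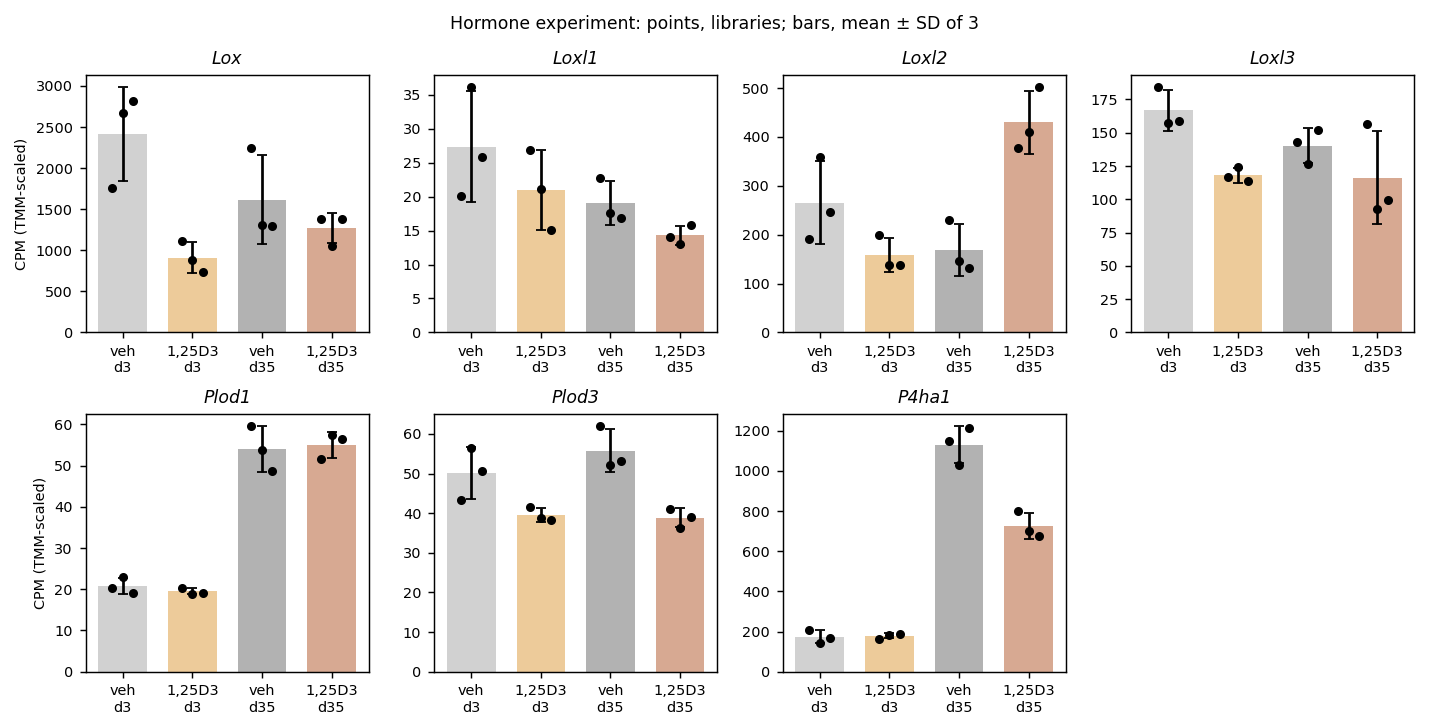
CPM after TMM scaling of the 7 genes tested in the hormone experiment, by group. Points are libraries, and bars and whiskers are the mean ± SD of 3 (veh, ethanol vehicle; 1,25D3, 100 nM 1,25(OH)2D3 for 24 hours; d3 and d35, day). The treated day 35 libraries of *Loxl2* lie between 378 and 502.5 CPM, above every other library of that gene.

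On day 35 the change of *Loxl2* with hormone had the other sign. It had 230, 146 and 131 CPM with vehicle and 378, 409 and 502.5 with hormone. The groups did not overlap, and *Loxl2* rose (1.35 ± 0.25, n = 3, edgeR adjusted p = 0.00449), 2.54-fold, where 4.56% of all genes were called, 2.41% higher and 2.14% lower. The rise was called in all 13 alternative fits (1.23 to 1.63). In the same libraries the osteoblast marker list summed to 10400 to 13100 CPM with hormone against 20200 to 25900 with vehicle. The chondrocyte list overlapped, at 44.3 to 80.1 CPM with hormone against 71.4 to 141. Within it the cartilage proteoglycan *Acan* had 12.8 ± 3.37 against 51.6 ± 15.3 CPM, and *Col10a1* 32.8 ± 21.9 against 21.2 ± 9.30 (SD, n = 3). The muscle list was lower, at 85.9 to 111 CPM against 162 to 212. The adipocyte list was higher, at 17.7 to 36.7 CPM against 9.32 to 15.6. The part of these differences in the result was not tested. The difference between the responses of the 2 days was 2.09 ± 0.36 (interaction contrast, edgeR adjusted p = 0.00195), where 7.08% of all genes were called, 4.14% higher and 2.94% lower. It was called in all 18 alternative fits (1.72 to 2.40), and with the background subtracted it was 1.85 (edgeR adjusted p = 0.00493).

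*P4ha1* had 1148, 1029 and 1212 CPM with vehicle on day 35 and 798, 698 and 677 with hormone, a fall without overlap (-0.64 ± 0.15, edgeR adjusted p = 0.0242). *Plod3* had 62.0, 52.2 and 53.3 CPM with vehicle and 41.1, 36.3 and 39.1 with hormone, likewise apart (-0.52 ± 0.14, edgeR adjusted p = 0.0496). Neither call held when any 1 of the 6 libraries was left out. *P4ha1* then ranged from -0.66 to -0.55 (edgeR adjusted p 0.0671 to 0.166) and *Plod3* from -0.53 to -0.44 (edgeR adjusted p 0.112 to 0.199), and *Plod3* was also not called with a replicate block (edgeR adjusted p = 0.1) or with library totals alone. *Lox*, at 2240, 1311 and 1297 CPM with vehicle and 1377, 1057 and 1381 with hormone, overlapped (-0.35 ± 0.24, edgeR adjusted p = 0.607). *Loxl1* had 22.8, 17.6 and 16.9 CPM with vehicle and 14.1, 13.1 and 15.8 with hormone, apart but not called (-0.42 ± 0.24, edgeR adjusted p = 0.491). *Loxl3* and *Plod1* overlapped, at -0.27 ± 0.18 and 0.03 ± 0.14 (edgeR adjusted p = 0.576 and 0.959).

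The responses of *Lox* and *P4ha1* differed between the days by 1.06 ± 0.34 and -0.69 ± 0.22, and neither difference was called (edgeR adjusted p = 0.0748 and 0.0701). DESeq2 called both, at adjusted p of 0.0149 and 0.0068. That of *P4ha1* was also called with library totals alone (-1.05) and with the background subtracted (-0.95, edgeR adjusted p = 0.0114), and that of *Lox* without replicate 1 of the day 3 vehicle (1.37), replicate 1 of the day 35 vehicle (1.38) or replicate 2 of the day 35 hormone cells (1.29).

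**Figure D5:**
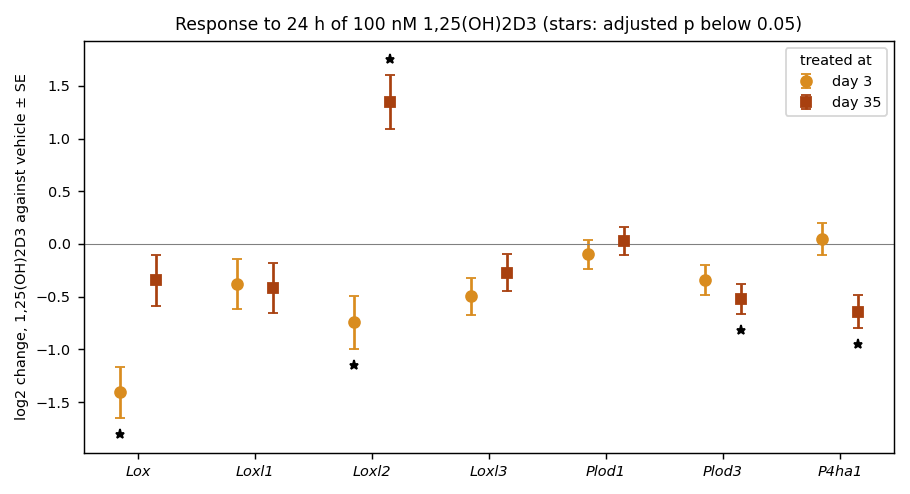
Log2 change with 100 nM 1,25(OH)2D3 against vehicle (± SE, n = 3 per group) of the 7 tested genes, on day 3 (circles) and day 35 (squares), with stars at edgeR adjusted p below 0.05. *Loxl2* lies at -0.74 on day 3 and 1.35 on day 35.

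Other genes of collagen making were read from lists, beside the shares of all genes called higher and lower, which were 5.63% and 51.5% in untreated cells on day 35 (29.5% and 21.5% centred), 15.5% and 14.5% in vehicle cells, 11.4% and 9.09% with hormone on day 3, and 2.41% and 2.14% with hormone on day 35. Of the partners in modification and export, 10 were tested in untreated cells on day 35, and 4 rose and 2 fell as listed (8 and 1 centred), with a median of 0.33 beside -0.69 for all genes. *Serpinh1*, the collagen chaperone, rose (0.92 ± 0.34, limma adjusted p = 0.0276), and *P4hb*, the partner of the alpha subunits, was called in centred libraries (1.13, limma adjusted p = 1.21e-06) and not as listed (0.30, limma adjusted p = 0.305). In vehicle cells 5 of 12 rose and 2 fell, with *P4hb* at 0.75 ± 0.13 (edgeR adjusted p = 0.000337) and *P4ha3* at -1.16 ± 0.29 (edgeR adjusted p = 0.00712). Of these 12, 1 rose and 1 fell with hormone on day 3, and none was called on day 35.

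Among substrates and fibril partners, 5 of 15 rose and 6 fell in untreated cells on day 35 (9 and 5 centred), and 9 of 16 rose and 3 fell in vehicle cells. The share that fell as listed was below the 51.5% of all genes. *Col1a1*, which encodes the alpha 1 chain of type I collagen, rose in both (1.18 ± 0.24, limma adjusted p = 0.000388; 1.86 ± 0.34, edgeR adjusted p = 0.000678), while *Col4a1*, a basement membrane chain, fell in both (-1.93 ± 0.20, limma adjusted p = 1.91e-07; -1.04 ± 0.16, edgeR adjusted p = 0.00013). With hormone 1 rose and 3 fell on day 3, and 0 rose and 2 fell on day 35. Of procollagen processing and lysyl oxidase activation, 0 of 8 rose and 3 fell in untreated cells (5 and 1 centred), and 4 of 11 rose and 0 fell in vehicle cells. The share that fell as listed was again below the 51.5% of all genes. *Bmp1*, the proteinase that cleaves the *Lox* propeptide, was at -0.03 in untreated cells (limma adjusted p = 0.909; centred 0.79, limma adjusted p = 0.000114) and rose in vehicle cells (1.47 ± 0.30, edgeR adjusted p = 0.00166). With hormone 0 of 11 rose and 2 fell on day 3, among them *Postn*, a matrix protein that binds *Bmp1* (-0.78 ± 0.14, edgeR adjusted p = 0.00212), and 1 rose and 1 fell on day 35.

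Of the cofactor genes for copper, iron and ascorbate, 0 of 5 rose and 2 fell in untreated cells on day 35 as listed, while 1 rose and 0 fell centred, and in vehicle cells 0 of 6 rose and 1 fell. The untreated share that fell was below the 51.5% of all genes. With hormone 0 rose and 2 fell on day 3, and 1 rose and 0 fell on day 35. Of the hypoxia-responsive list, 2 of 12 rose and 6 fell in untreated cells on day 35 (3 and 2 centred). The untreated share that fell as listed was near the 51.5% of all genes. The list's median there was -0.62 beside -0.69 for all genes, and 0.21 beside 0.14 centred. In vehicle cells 11 of 15 rose and 3 fell, and the list's median was 1.44 beside 0.18 for all genes. *Pdk1*, a kinase that restrains pyruvate oxidation, rose in vehicle cells (3.20 ± 0.16, edgeR adjusted p = 1.94e-09) beside *P4ha1*, and *Adm*, a vasodilator peptide, fell in both (-3.40 ± 0.20, edgeR adjusted p = 1.04e-08; untreated -3.27 ± 0.27, limma adjusted p = 9.15e-09). With hormone 8 of 15 fell on day 3 and 2 on day 35, where 9.09% and 2.14% of all genes were called lower, and none rose. *Hk2*, a hexokinase, fell on both days (-2.19 ± 0.19, edgeR adjusted p = 2.08e-06; -0.91 ± 0.18, edgeR adjusted p = 0.00578).

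Among 3344 genes with a mean of at least 5 RPKM, those whose levels across the 18 untreated libraries were most like those of *Lox* included *Vcl* (Pearson r = 0.97), *Cblb* (0.96), *Csrnp1* (0.96) and *Ptgs2* (0.96), a description with no test. *Ptgs2*, the inducible cyclooxygenase, went from a mean of 58.7 RPKM on day 3 to 3.28 on day 7 and 0.898 on day 35, and *Vcl*, the adhesion protein vinculin, from 34.2 to 8.75 and 4.08.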

How the data were processed

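Strand-specific RNA-seq was deposited for 30 libraries. Per the submitters' processing notes, reads were aligned with TopHat to mm9, versions and counting steps being not given in the sources used here. The deposited values of untreated cells are RPKM, which give no depth. The deposited files of the hormone experiment are named for RPKM but hold whole numbers, which were read as raw counts. For a symbol with several rows, the row of highest mean was used for RPKM, and counts were summed.

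RPKM were tested in limma 3.58.1 (R 4.3.3) with trended moderation over 18 libraries (12 residual degrees of freedom), a pseudocount of 0.5 and no further scaling. Because centring the libraries changes the split of calls, centred values stand beside these. Counts were tested with edgeR 4.0.16 (TMM, filterByExpr, quasi-likelihood, 12 libraries, 8 residual degrees of freedom), with SE taken as the size of the change over the root of F. Tests were two-sided and Benjamini-Hochberg adjusted. Scripts were tested on simulated data. DESeq2 1.42.0, other scalings and filters, replicate blocks, the sequencing run and leaving out each library were alternatives. Same-numbered libraries deviated together (r above 0.1 in every pair) in 7 of the 9 untreated comparisons and in no comparison of the hormone experiment. For untreated day 35 against day 3 and against day 28, and for hormone on day 35, 2 of 3 pairs had r above 0.1. Genes of each list were named by smallest adjusted p, with *Col1a1*, *Col1a2*, *P4hb*, *Serpinh1* and *Bmp1* always eligible, and the genes most like *Lox* by Pearson r. A gene that met these rules is not reported here. The members and lists were chosen with earlier results of these data known.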

Additional observations from a re-analysis of the deposited data

Results flagged for a closer look

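The response of *Loxl2*, a lysyl oxidase of basement membrane collagen, to 1,25(OH)2D3 differed between the 2 days. The change on day 35 minus that on day 3 was 2.09 ± 0.36 (log2, n = 3 libraries per group, edgeR interaction contrast, adjusted p = 0.00195), from -0.74 on day 3, where the groups overlapped, to 1.35 on day 35, where all 3 treated libraries lay above all 3 vehicle libraries. The treated day 3 libraries have a raised background, and with it subtracted the difference was 1.85 (edgeR adjusted p = 0.00493).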

How the results depend on the processing

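The direction and the call of the *Lox* falls from day 3, the *P4ha2* rises on days 28 and 35, the vehicle rises of *P4ha1* and *Plod1*, and the *Loxl2* response on day 35 and its difference from day 3 did not change in any alternative fit run. The *Plod3* change on day 35 of untreated cells reversed to 0.16 in centred libraries and to 0.15 with rows also summed. The counts of called genes moved as follows, and with no filter or with rows summed in untreated cells they take in genes outside the 7 tested. The share of all genes called moved as well. Centring took it from 41.5% to 50.6% for day 28 against day 3, and from 1.24% to 2.76% for day 28 against day 21. Shares for most other settings are not given here, and whether the counts moved beyond the share of all genes was not tested. Untreated day 7 against day 3 gave 3, and 5 with ribosomal RNA rows taken out of the scaling. Days 14 and 21 gave 3 each, and 5 each with quantile normalization. Day 28 against day 3 gave 4, and 4 to 6 in the alternatives, with 6 in centred libraries and with quantile normalization. Day 35 against day 3 gave 6, then 4 with the run as a covariate, 5 in centred libraries and 8 with no filter. Day 28 against day 21 gave 1, and 2 in centred libraries, with quantile normalization or with the ribosomal RNA rows taken out. Day 35 against day 28 gave 1, then 2 with a pseudocount of 0.1 or no filter, and 0 with the sequencing run as a covariate or only the groups compared. Vehicle cells gave 2, and 4 with DESeq2. Hormone on day 3 gave 2, then 1 with the size factors of DESeq2 or background subtraction, 3 with DESeq2 and 4 with no filter. The interaction gave 1, then 2 with those size factors, with library totals alone, with no filter or with background subtraction, and 3 with DESeq2.

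Leaving out 1 library gave 1 to 3 called genes on day 7, 2 to 3 on days 14 and 21, 4 to 5 on day 28 and 4 to 6 on day 35, all against day 3. The steps gave 0 to 0 for day 14 against day 7 and day 21 against day 14, 1 to 1 for day 28 against day 21 and 0 to 3 for day 35 against day 28. Vehicle cells gave 2 to 5, hormone on day 3 gave 1 to 3, hormone on day 35 gave 1 in every case against 3 with all libraries, and the interaction 1 to 3.

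With the replicate number as a block, which pairs the libraries in 7 untreated comparisons, day 14 against day 7 gave 1 called gene instead of 0. For day 35 against day 28, where 2 of 3 pairs had r above 0.1, the block gave 2 called genes instead of 1. With hormone on day 35, where 2 of 3 pairs also did, *Plod3* lost its call. With hormone on day 3, where 0 of 3 pairs did, the block gave 1 instead of 2. The block changed no other call among the 7 genes except that of *Loxl2* between days 28 and 35 (-0.67, limma adjusted p = 0.0426). The cause of these changes was not tested. Depth is unknown for RPKM, and low genes such as *Plod1* and *Loxl1* could not be tested there. Background subtraction and row sums in centred libraries were added after seeing the data.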
